A study of Mus musculus with 8 samples.

Results

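The 6 genes Apoe, Clu, App, Ctsd, Ctsb and Lamp1 encode secreted lipid carriers and extracellular chaperones, the membrane precursor of amyloid beta, and proteins of the lysosome. The authors listed 581 m6A peaks over 2 comparisons of mouse left ventricle, and 18 of them lay in these genes. A stretch of RNA listed in both comparisons counts in each. The peaks were taken from both deposited tables by the Entrez gene ID of each row, and the genes themselves were selected on log2 changes already known from both tables, so those changes are given as a description. N6-methyladenosine (m6A) was mapped by MeRIP-seq, in which an anti-m6A antibody enriches RNA fragments that carry the mark, and the enriched fragments are sequenced beside an input library made without enrichment. The samples were left ventricles of wild-type C57BL/6 mice, labelled as 1 week after myocardial infarction (MI), and each of the 4 groups had 1 input and 1 MeRIP library. The groups were sham surgery, MI alone, MI plus aavgnp and MI plus aavFto. The aavFto group is read as hearts given Fto, an m6A demethylase, by a viral vector and aavgnp as its vector control, since the labels expand neither name, and all 4 groups share strain, tissue and time. The number of animals behind a group's RNA and the promoter of the vector are not stated in the labels.

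In mRNA, m6A is written by a methyltransferase complex and can be removed by FTO, and it is known to gather around stop codons and in 3′ untranslated regions. Apolipoprotein E and clusterin (also called apolipoprotein J) are secreted proteins that bind lipids and, in the case of clusterin, unfolded proteins outside the cell. App encodes the membrane protein from which secretases cut amyloid beta. Cathepsin D, an aspartic protease, and cathepsin B, a cysteine protease, digest proteins inside the lysosome, and LAMP1 is a major glycoprotein of the lysosomal membrane. In an infarct, macrophages clear dead cells and break down their content in lysosomes.

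Each group had 1 library of each kind, so none of the differences could be checked against replicates, and the p-values and false discovery rates (FDR) of the authors compare libraries, not conditions. The log2 change was read as MI over sham and as aavFto over aavgnp, from the order of the group names, and the opposite reading would turn every sign of the table concerned. Depth per library is unknown. Transcript levels were not analysed here, so more methylation per transcript, more transcript, fewer or more cells of a type and more RNA per cell cannot be told apart. Peaks of cardiomyocyte genes were present, as the tissue label implies: 10 of 10 cardiomyocyte markers had a listed peak in the aavFto table and 2 of 10 in the MI table. All positions are 1-based on mm10, and since the gene table used holds spans and no exons, peaks are placed by their distance from the annotated gene end and not assigned to coding sequence or UTR.

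The MI table listed 8 peaks in 4 of the genes, among 116 peaks in 77 named genes: 1 in Apoe, 4 in Clu, 2 in App and 1 in Ctsd. Ctsb and Lamp1 had no row there. The aavFto table listed 10 peaks in all 6 genes, among 465 peaks in 271 named genes: 1 each in Apoe, Clu, Ctsb and Lamp1, 2 in App and 4 in Ctsd. No peak of another gene or without a gene ID lay inside the span of any of the 6 genes in either table, and no other gene of the RefSeq table overlapped these peaks.

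The first comparison addressed how m6A differed between infarcted and sham hearts. All 8 listed peaks had a positive change, between 2.04 and 4.39 on the log2 scale, in the authors' deposited table. A positive change was listed for 84.5% of all its peaks, so the sign alone does not set these genes apart. The largest was in Clu and the next gene in order was Apoe, while App and Ctsd lay close together near 2.1. An unadjusted p under 0.05 was reached by 2 of the 8 peaks, both positive, against 21.6% of the table, and an FDR under 0.05 by 0 of 8, against 14.7%. The median over the 4 genes, each taken at its largest change, was 2.84, and over all 77 genes it was 1.61. Over peaks the medians were closer, at 2.32 for the 8 peaks and 1.92 for all 116. The smallest change listed in the MI table was 1.01 in size, so all 116 peaks had a change of at least 1. The aavFto table listed changes down to 0.0041 in size, and 131 of its 465 peaks reached 1. Whether the authors set a minimum change is not stated. Counts of listed genes and markers are therefore not alike between the 2 tables, and absence from the MI table does not show absence of a peak.

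For Apoe the MI peak was a single block of 180 nt at chr7:19696334-19696513, whose 3′ edge lay 90 nt before the annotated end of the gene. Its fold enrichment over input was 60.0, and the change of 3.51 in the authors' deposited table corresponds to an 11.4-fold higher signal after MI (p = 0.00891, FDR 0.100). By p the peak ranked number 19 of the 116 peaks, and its fold enrichment was below their median of 65.7. The Apoe change is thus large in these libraries but did not pass the FDR.

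Clu had 4 separate short peaks, which in 5′ to 3′ order lay at chr14:65971823-65974871, chr14:65976915-65977004, chr14:65980884-65981311 and chr14:65981400-65981459. Their changes in the same order were 2.04, 3.12, 2.48 and 4.39 in the authors' deposited table. The last peak, 60 nt long and 89 nt before the gene end, stood at p = 0.0224 (FDR 0.20) in the authors' deposited table, and its change of 4.39 is a ratio of 21.0. No other Clu peak had a p under 0.05. Within Clu the shorter a peak was, the larger was its change: the 60 nt peak stood at 4.39, the 90 nt peak at 3.12, the 150 nt peak at 2.48 and the 208 nt peak at 2.04 in the authors' deposited table. The Clu peak with the smallest enrichment p, at a log10 p of -7.40, was also the one with the smallest change. The peak with the largest change had the weakest enrichment, at -4.63. Its fold enrichment of 28.5 was the lowest of the 4, against a median of 65.7 over all 116 peaks. The value that stands for Clu after MI therefore lies between 2.04 and 4.39 depending on the peak, and all of these are positive.

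App and Ctsd had changes close to that of the longest Clu peak, with larger p-values. The App peaks were a block of 61 nt at chr16:85030256-85030316, with a change of 2.12 (p = 0.341), and a peak of 181 nt at chr16:85056348-85079841, with 2.14 (p = 0.337), in the authors' deposited table. The first of these was the weakest of all 116 peaks by enrichment p. The Ctsd peak, 90 nt in 2 blocks at chr7:142377110-142377361, stood at 2.16 (p = 0.334) in the authors' deposited table. These 3 peaks shared the FDR of 0.741, the highest value of the table, with 66 peaks in all, so neither gene is told apart from no change.

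**Figure D1:**
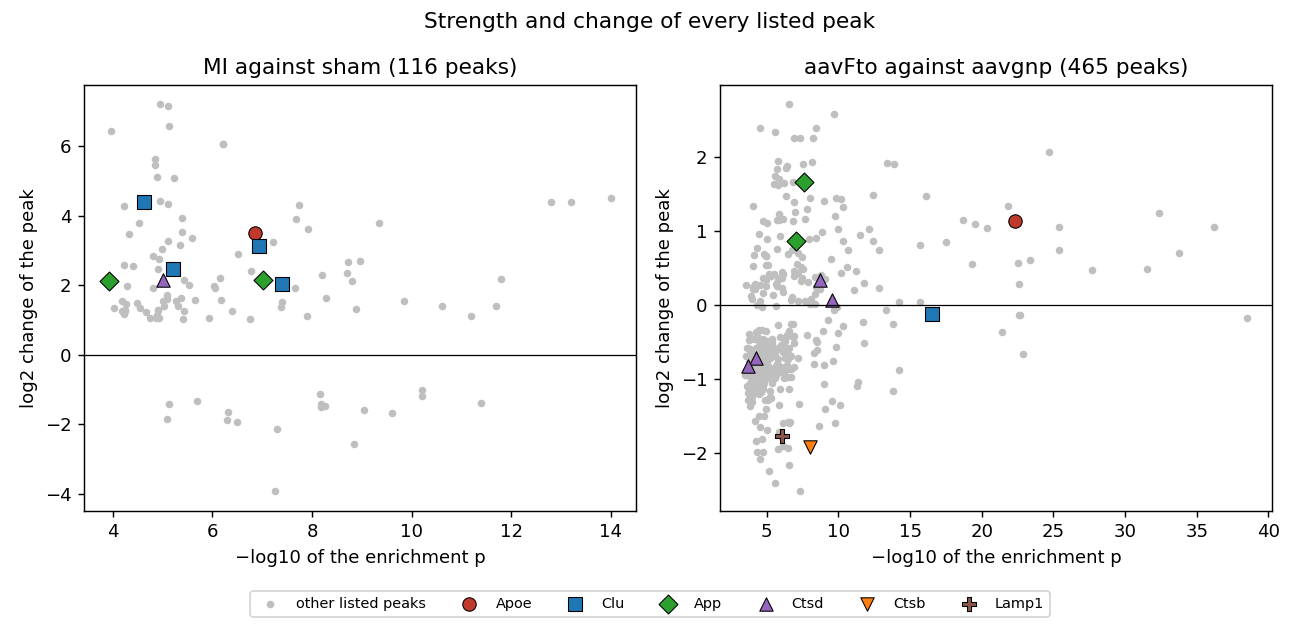
Log2 change of each listed peak (vertical axis) against the −log10 of its enrichment p (horizontal axis), for MI against sham on the left and aavFto against aavgnp on the right, with the peaks of the 6 genes in colour and all others in grey. After MI all 8 coloured peaks lie between 2.04 and 4.39, and with aavFto the 10 coloured peaks spread from -1.92 to 1.66, with Apoe the strongest of them at an enrichment log10 p of -22.3.

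The other comparison asked how the m6A peaks of infarcted hearts differ with aavFto relative to aavgnp. By sign alone, Apoe and App had only positive peaks, Ctsb, Lamp1 and Clu only negative ones, and Ctsd both. The sign rests on 1 peak each in Apoe, Clu, Ctsb and Lamp1, and the Clu change was close to none, at -0.12 in the authors' deposited table. Of the 10 peaks 5 were positive, against 32.7% of all listed peaks, and 5 were negative, against 67.3%, in the authors' deposited table. The 10 peaks had a median length of 328 nt, against 181 nt for all 465, and signs differed with length in this table, as given below. Only the Apoe peak had an unadjusted p under 0.05, so 1 of 10 passed in the positive direction, against 3.87% of the table. An FDR under 0.05 was reached by 0 of 10, against 1.72%. All 10 peaks carried the same FDR of 0.713, which 443 of the 465 peaks shared. The median over the 6 genes at their largest change was -0.47, and over all 271 genes it was -0.69.

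Of the secreted lipid-binding proteins, Apoe had a long and strongly enriched peak, 1048 nt over blocks of 79, 169 and 800 nt at chr7:19696304-19698266. It reached from 132 nt below the nearest annotated start of transcription, and 922 nt below the farthest one used, to 60 nt before the gene end. The annotated start of the gene span lay 3044 nt upstream, and these distances run along the genome, introns included. The peak is thus a long region and not a single site. Its enrichment ranked number 16 of 465 by p, at a log10 p of -22.3. The change was 1.14, a ratio of 2.20, with p = 0.0240 in the authors' deposited table. The 1 Clu peak was longer still, 1573 nt in 8 blocks at chr14:65971734-65981518, and ended 30 nt before the gene end. Its fold enrichment of 142 was the second highest of the table, and its change was -0.12 (p = 0.489) in the authors' deposited table, a ratio of 0.921. Clu thus combined one of the strongest enrichments with a change close to 0.

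App had a peak of 300 nt in 3 blocks at chr16:85024901-85030345 with a change of 1.66 (p = 0.255), and a peak of 211 nt in 2 blocks at chr16:85056348-85079871 with 0.86 (p = 0.516), in the authors' deposited table. Both App peaks were positive in both tables, and in none of the 4 cases was p under 0.05. They lay far from the gene end, 72235 and 103682 nt along the genome, introns included.

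The lysosomal genes Ctsb and Lamp1 had the most negative values of the set. The Ctsb peak, a single block of 418 nt at chr14:63142404-63142821, stood at -1.92 (p = 0.0933), a ratio of 0.264, in the authors' deposited table. It was the 10th lowest change among the 465 peaks. For Lamp1, a peak of 209 nt in 2 blocks at chr8:13171233-13172598 stood at -1.77 (p = 0.310), a ratio of 0.293, in the authors' deposited table, and was the 14th lowest. Both are large in size for this table, and neither passed an unadjusted p of 0.05. They had fold enrichments of 76.5 and 69.3, above the table's median of 54.3.

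Ctsd, the third lysosomal gene, had 4 peaks that did not share a sign. The longest, 504 nt in 4 blocks at chr7:142376567-142377420, stood at 0.33, and the peak at the gene end, 356 nt at chr7:142375975-142376330, stood at 0.07, in the authors' deposited table. The other two, of 60 nt each, lay at chr7:142376449-142376508 with -0.72 and at chr7:142380937-142382595 with -0.83 in the authors' deposited table. Their p-values ran from 0.593 to 0.668, so no Ctsd peak is told apart from no change. The sign given to the gene depends on which peak stands for it. Most peaks of up to 61 nt in this table were negative: 2 of 48 were positive (4.17%), and both short Ctsd peaks were among the negative ones. Of the 133 peaks of 300 nt or more 58.6% were positive, and of the 6 such peaks in these genes 4 were positive and 2, in Clu and Ctsb, were negative. Of the 332 peaks under 300 nt 22.3% were positive, and of the 4 such peaks in these genes 1 was. Within both of these length classes the counts of the 6 genes thus lay near the share of the table. In the MI table the short peaks had the other sign, with 18 of 19 peaks of up to 61 nt positive (94.7%), among them 1 of Clu and 1 of App.

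**Figure D2:**
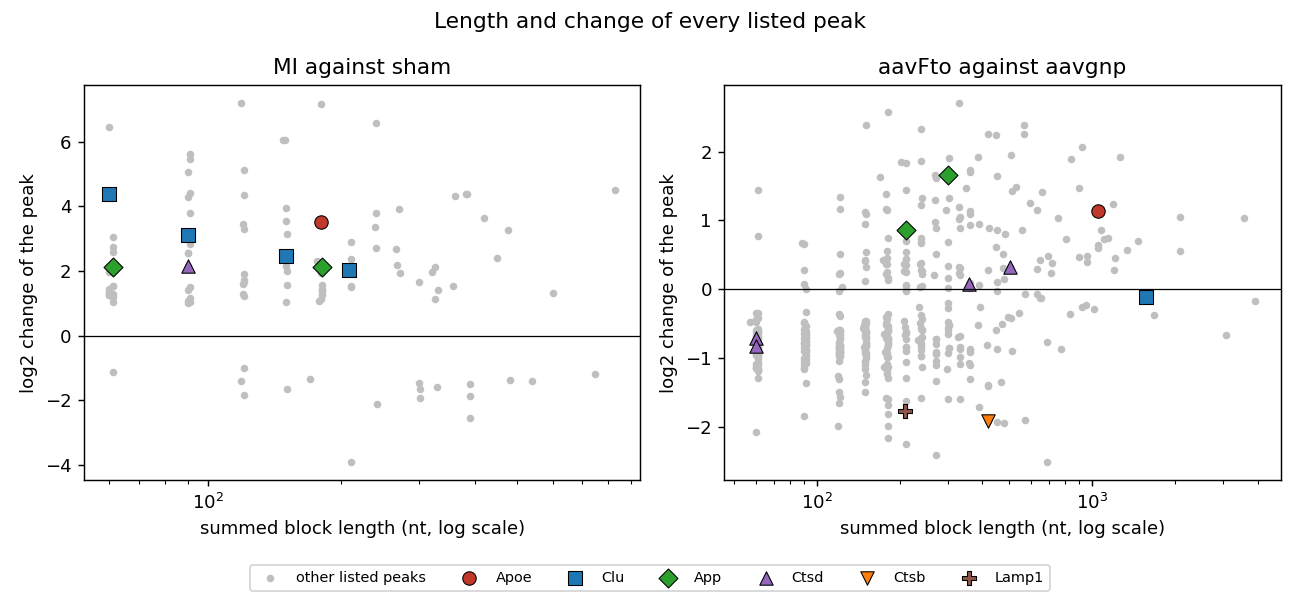
Log2 change of each listed peak (vertical axis) against its summed block length in nt (horizontal axis, log scale), with the peaks of the 6 genes in colour and all others in grey. After MI the 4 Clu peaks run from 4.39 at 60 nt to 2.04 at 208 nt, and with aavFto the 60 nt Ctsd peaks lie below 0 with most other short peaks while the Apoe peak of 1048 nt lies at 1.14.

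The same stretches of RNA were then compared between the tables, which rest on different libraries. Every one of the 8 MI peaks overlapped an aavFto peak of its gene on the same strand by at least 1 bp, and each lay wholly inside it. Over all genes 109 of 116 MI peaks (94.0%) had such an overlap. The aavFto peaks were the longer ones: the Apoe peak was 5.82 times as long as its MI counterpart, the overlapping Ctsd peak 5.60 times, and the Clu peak 7.56 to 26.2 times as long as the 4 MI peaks inside it. Only the App peak that starts at chromosome 16 position 85056348 matched closely, with 100% of the MI peak and 85.8% of the aavFto peak in common and 1 identical block of 179 nt. For that stretch the deposited tables gave fold enrichments of 97.0 in the MI table and 27.1 in the aavFto table, and changes of 2.14 and 0.86. The Clu tables also shared an identical block, of 149 nt, at chr14:65973325-65973473. Of the 10 aavFto peaks, 5 overlapped an MI peak, against 97 of all 465 (20.9%), and the other 5 were the Ctsb and Lamp1 peaks and 3 of Ctsd.

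**Figure D3:**
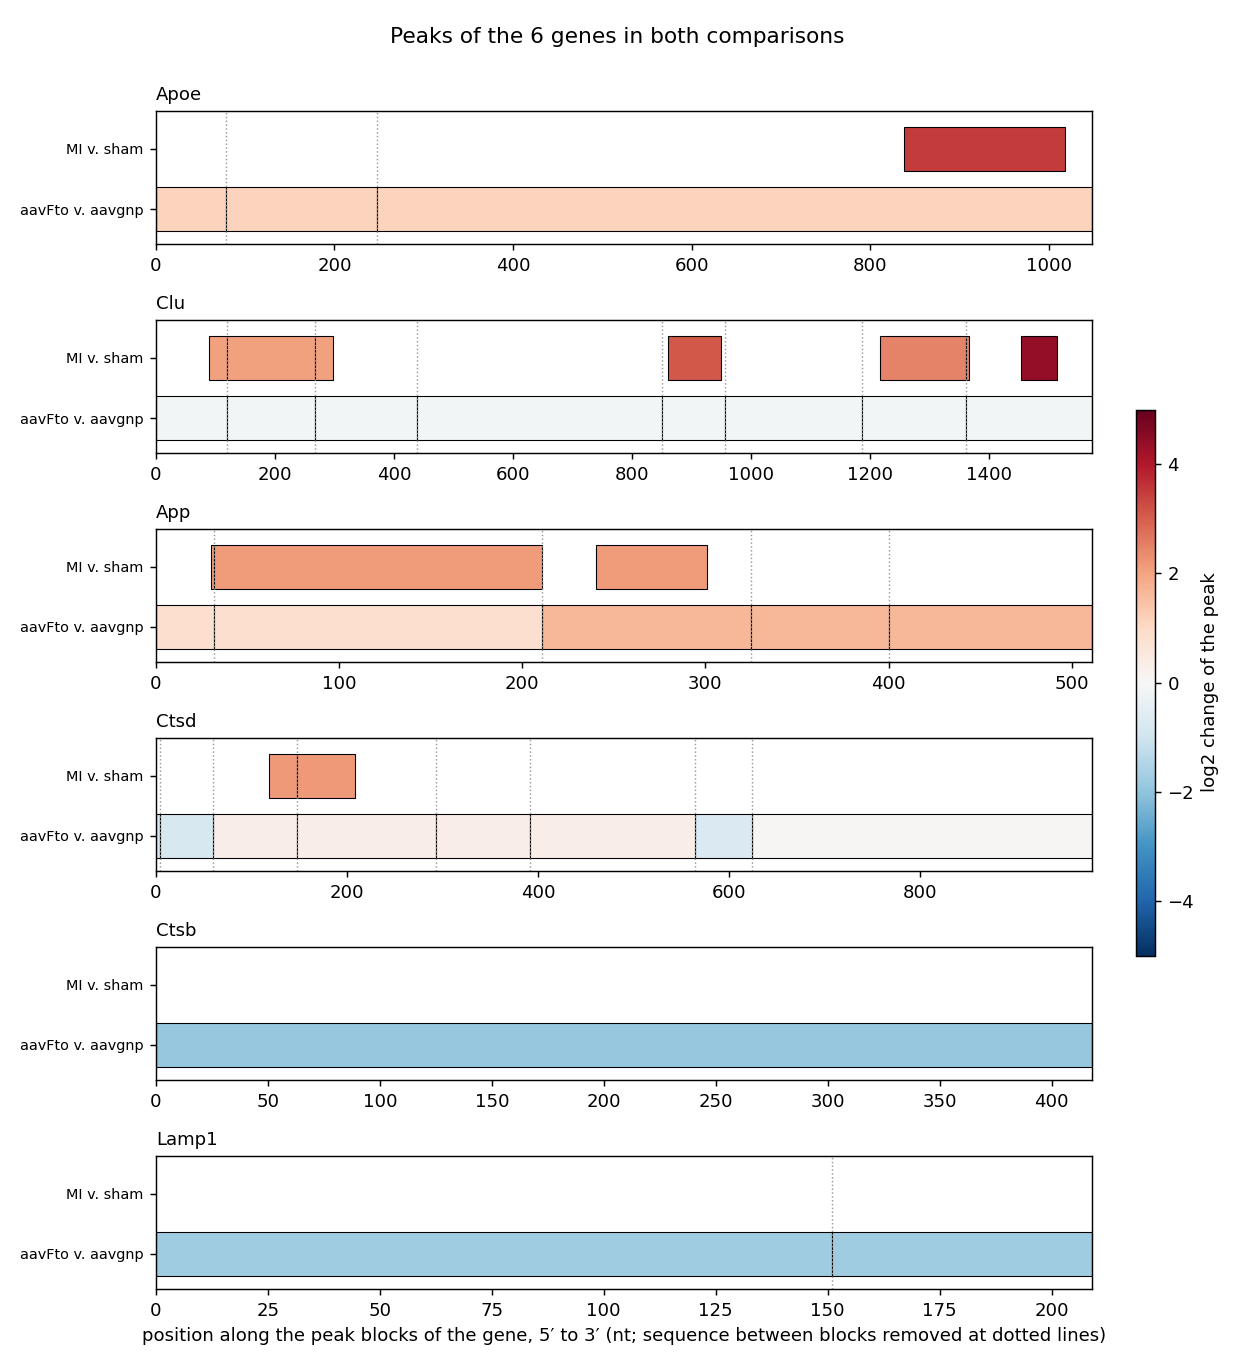
Peak blocks of each gene in both tables, drawn to scale 5′ to 3′ (horizontal axis, nt) with the sequence between blocks removed at the dotted lines and coloured by the log2 change. The short MI peaks of Apoe, Clu, App and Ctsd all lie within the longer aavFto peaks, and Ctsb and Lamp1 have aavFto peaks only.

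Peaks at the gene end were found in 3 of the genes. The 3′ edge lay within 200 nt of the annotated gene end for 2 of 8 MI peaks, in Apoe and Clu, against 17.1% of all peaks with a gene ID. It did so for 3 of 10 aavFto peaks, in Apoe, Clu and Ctsd, against 11.8%. The gene end is the farthest one annotated for any transcript, so a peak near the end of a shorter transcript is not counted.

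Of the 74 genes in both tables, 27 had a positive largest change in both, 38 were positive after MI and negative with aavFto, 7 the reverse and 2 negative in both. If the aavFto changes were read the opposite way, the counts would be 38, 27, 2 and 7. As read, Apoe and App were among the 27, and Clu and Ctsd among the 38. Taken at its longest peak (0.33) or its peak of smallest enrichment p (0.07) with aavFto, in the authors' deposited table, Ctsd would be positive in both. An unadjusted p under 0.05 in both tables was reached by 4 of the 74 genes, Apoe, Atp2a2, Col3a1 and Myh6. For Apoe these peaks were positive in both tables. The corresponding peaks of Atp2a2, which encodes the SERCA2a calcium pump, stood at -3.93 and -1.18 after MI and 1.91 with aavFto in the authors' deposited tables. Those of Myh6, the adult myosin heavy chain, stood at -2.56 after MI and between 0.70 and 2.25 with aavFto in the authors' deposited tables, and those of Col3a1 at 5.46 and 7.17 after MI and -0.67 with aavFto. As the signs were read, Apoe was the gene of these 4 whose peaks at that p had the same sign in both tables, and with 1 table turned it would be the gene with opposite signs while the other 3 would share theirs.

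By distance between the pairs of largest changes over the 74 genes, Ankrd1, a stress-responsive sarcomere protein, was nearest to Apoe, with 3.47 after MI and 1.09 with aavFto in the authors' deposited tables (distance 0.064). Itgb5, an integrin chain, followed at 3.54 and 1.20 (distance 0.067) in the authors' deposited tables. Nppa, which encodes atrial natriuretic peptide, was nearest to Clu, with 4.52 and -0.36 (distance 0.28) in the authors' deposited tables. Nearest to App was Fth1, the ferritin heavy chain, with 1.98 and 1.39 (distance 0.31), and nearest to Ctsd was Xirp2, with 1.93 and -0.95 (distance 0.26), in the authors' deposited tables. The Ctsd distance rests on its 60 nt peak at -0.83 with aavFto, and the Clu distance on its 60 nt peak at 4.39 after MI. Clu stood at 2.04 after MI by its longest peak, farther from the 4.52 of Nppa. The measure rests on 2 values per gene, each without a replicate.

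**Figure D4:**
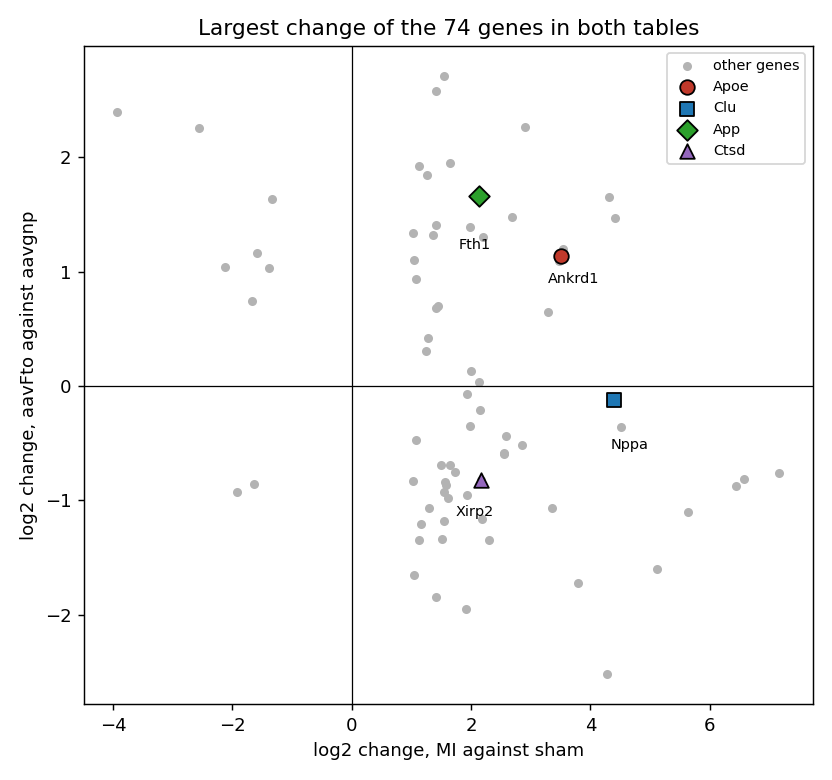
Largest log2 change of the 74 genes listed in both tables, MI against sham on the horizontal axis and aavFto against aavgnp on the vertical axis, with Apoe, Clu, App and Ctsd in colour and the gene nearest to each named. Apoe and App lie in the upper right quadrant, Ctsd in the lower right, and Clu just below 0 at 4.39 after MI.

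Other genes of the same pathways were counted from written lists. Of a list of 47 further genes of the lysosome and of proteins that act with it, 1 had a peak in the MI table and 3 in the aavFto table, none with p under 0.05. That 1 was Cst3, cystatin C, a secreted inhibitor of cysteine cathepsins, at 2.68 after MI and 1.48 with aavFto in the authors' deposited tables. Psap, the precursor of the saposins, stood at -0.81, and Sqstm1, an autophagy receptor, at -0.78, with aavFto in the authors' deposited table. Of 24 genes of lipoprotein and lipid transport, Fabp4, a fatty acid binding protein, was at 1.98 and Lpl, lipoprotein lipase, at -1.85 after MI, and Fabp4 at -0.35 with aavFto, in the authors' deposited tables. Of 18 genes of App processing, Itm2b alone was listed, at -1.04 with aavFto in the authors' deposited table. The complement list had 3 of 13 genes in the aavFto table, all negative, with C3 at -1.17, C1qc at -0.91 and C1qa at -0.74 in the authors' deposited table, and none in the MI table. None of these peaks had p under 0.05, beside 30 of all 116 peaks after MI and 20 of all 465 with aavFto. With so few peaks listed, that count does not set these lists apart from the tables. By largest change 87.0% of the genes in the MI table and 30.3% of those in the aavFto table were positive.

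Markers of the cells that could hold these transcripts were counted beside them. Of 17 macrophage markers 0 were listed after MI and 3 with aavFto, Cd74, C1qa and C1qc, all negative, at -0.52 to -0.91 in the authors' deposited table. The lists share genes: C1qa and C1qc are the same peaks as in the complement list, and Fabp4 is in both the lipid and the endothelial list. Of 10 fibroblast markers 4 were listed after MI, all positive with a median of 6.11, and 5 with aavFto, 1 positive and 4 negative with a median of -0.80. The 2 cardiomyocyte markers listed after MI were negative, with a median of -2.35, and of the 10 with aavFto 7 were positive and 3 negative, with a median of 0.65. Endothelial markers were listed 3 of 8 times in each table, positive after MI with a median of 1.98 and negative with aavFto with a median of -0.60. Of 6 markers of smooth muscle and pericytes Pdgfrb alone was listed, at 2.58 after MI and -0.43 with aavFto, and of 4 erythroid markers Hbb-bs alone, at 0.67 with aavFto, in the authors' deposited tables. A peak with an unadjusted p under 0.05 was listed for 4 fibroblast markers and 1 cardiomyocyte marker after MI, beside 30 of all 116 peaks. With aavFto it was listed for 1 fibroblast and 5 cardiomyocyte markers, beside 20 of all 465 peaks. The marker counts are of genes and the totals beside them of peaks, so the 2 are not alike. A gene with several peaks, such as Myh6 with 5 in the aavFto table, can pass by any of them. No marker of the other cell types had a peak with an unadjusted p under 0.05 in either table. By largest change 87.0% of all genes were positive after MI and 30.3% with aavFto. The part of cell make-up in the changes of the 6 genes was not tested.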

How the data were processed

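MeRIP and input libraries of left ventricle, 200 µg RNA per group, were sequenced as 50 bp single reads, per the labels' protocols, and the submitters' processing notes name STAR 2.5.3a and the build mm10. No source used here names the peak caller, its thresholds or the scaling of libraries. The deposited score column is the enrichment p-value of each peak. Enrichment and differential p and FDR are log10 values and are printed as plain p and FDR, the fold enrichment is a linear ratio, and the change is a log2 value, per the file headers. The p-values are the authors', and no test was computed here. Symbols came from a RefSeq table of GRCm38.p6, the assembly that mm10 holds, and 105 of 105 and 449 of 449 peaks with an ID matched. Peaks lacking an ID, 11 and 16, count in totals of peaks only.

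The peak with the largest log2 change in size stood for its gene. Length is the sum of a peak's blocks. Genes were named by a written rule: the 6 genes with every peak, up to 4 genes of each pathway list, and the 3 nearest genes to each member in both tables, of which those at the smallest distance are printed. The genes and lists were chosen with earlier results of these data known. The length classes were set after the values were seen. Functions were tested on simulated peaks. Python 3.11.15 and pandas 2.3.3 were used. No genome sequence was used, so the planned motif search was not run and no peak sequence is shown.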

Additional observations from a re-analysis of the deposited data

How the results depend on the processing

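Of the changes of single genes, that of Ctsd with aavFto turned from -0.83 to 0.072 with the peak of smallest enrichment p and to 0.33 with the longest peak, because its 4 peaks differ in sign, and no other gene changed sign with any choice of peak. With peaks of at least the median fold enrichment, 3 of the 8 positive MI peaks were left, and 2 positive and 3 negative aavFto peaks. The MI peaks left were in Clu, App and Ctsd. The Apoe peak and the Clu peak at 4.39 in the authors' deposited table, the only 2 with an unadjusted p under 0.05, were dropped. Their fold enrichments were 60.0 and 28.5, below the median of 65.7. With changes of at least 1 in size, 2 positive and 2 negative aavFto peaks were left. At an FDR of 0.05, 0 peaks of the 6 genes passed in either table, against 14.7% of all MI peaks and 1.72% of all aavFto peaks. At an unadjusted p of 0.01, 1 of their peaks passed after MI, against 16.4% of all, and 0 with aavFto, against 2.15%. With the mean over a gene's peaks the median of the genes was 2.58 after MI and -0.20 with aavFto. Leaving out each gene in turn gave 2.16 to 3.51 and -0.83 to -0.12. Under a reciprocal overlap of 50%, 1 of 8 MI peaks was shared, the App peak, and over all genes 51 of 116. No paired analysis was possible because each group had 1 library of each kind and the tables hold no values per library. Depth is unknown and limits all values.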

Other observations

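The authors' p-values of these peaks were set beside those of peaks of other genes with a like change. For the Ctsd peak at -0.83 with aavFto, 45 peaks of other genes had a change within 0.05 and a median p of 0.590, beside 0.593 for Ctsd, in the authors' deposited table. For the Lamp1 peak the values were 0.310, beside 0.301 and 0.321 for the peaks of other genes within 0.05 of its change of -1.77, in the authors' deposited table. The Ctsb peak had p = 0.0933 beside 0.270 to 0.281 for the 3 other peaks within 0.05 of its change of -1.92, in the authors' deposited table. The Clu peaks at 2.04 and 2.48 after MI had p-values of 0.0794 and 0.0933, beside 0.361 and 0.285 for the 1 other peak with a like change in each case, in the authors' deposited table. The Clu peak at 3.12 had 0.198, beside 0.194 for the 1 other such peak. The Clu peak at 4.39 went the other way, with 0.0224 beside a median of 9.77e-05 over 4 peaks of other genes. Those 4 ran from 2.14e-07 to 0.0891 in the authors' deposited table. For Apoe after MI the p of 0.00891 was below the 0.0295 and 0.153 of the 2 peaks with a like change, while with aavFto its p of 0.0240 lay between the 6.92e-05 and 0.448 that bound the 9 such peaks, whose median was 0.420.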
